A study of Mus musculus with 6 samples.

Results

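The SNARE exocytosis module was taken by symbol, as the genes of the count tables named Syt, Stx, Vamp, Snap or Stxbp with a number (for Stx also with a or b after it), the synapsins Syn1 to Syn3 and synaptophysin. Stxbp3a and Stxbp5l, whose symbols end in a further letter, fell outside this rule and were kept with the priming factors described further on. The rule gave 53 of the 24015 genes counted, of which 37 passed the filter on low counts and were tested and 16 did not. Each member was placed in a neuronal class (22 genes, 11 tested), a ubiquitous class (19 genes, all tested) or a remaining class (12 genes, 7 tested) from textbook knowledge of where it is used, the ubiquitous class holding genes that act in many cells outside synapses, some of them best known from blood or epithelial cells. Gene expression was measured by RNA-Seq in whole sciatic nerves of mice at postnatal day 14, with 3 libraries from control mice and 3 from Rnf40ΔSC mice. Control mice were Rnf40 fl/fl and carried no Cre, while Rnf40ΔSC mice carried the same floxed alleles plus a Dhh::Cre transgene, which is active in the Schwann cell lineage from embryonic stages on. All animals therefore shared the floxed alleles and differed in the transgene, whose own effect cannot be told apart from that of the deletion. The labels give a mixed 129SvJ/C57Bl/6J strain for both groups, whereas the methods of the study name C3H and C57Bl/6J. Each library came from a pool of 3 nerves, and cells of the nerve outside the lineage in which the Cre is active keep their Rnf40. Rnf40 is a subunit of the ligase that attaches a single ubiquitin to histone H2B, and the study asked how its loss alters gene expression in Schwann cells.

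Membrane fusion is driven by SNARE proteins that zip together across the gap between a vesicle and its target membrane. A syntaxin and a SNAP protein on the target membrane pair with a VAMP protein on the vesicle, proteins of the Sec1 family clasp the assembling bundle, and synaptotagmins couple fusion to calcium. Neurons use a dedicated set of these proteins for transmitter release at the synapse, while every cell uses other members for constitutive secretion and for traffic between Golgi, endosomes and lysosomes. Cell bodies of the neurons whose axons run in the sciatic nerve lie outside it, in ganglia and spinal cord.

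Total counts were 1317167, 1992622 and 2468765 in control libraries 1 to 3 and 2184268, 1459387 and 2186710 in Rnf40ΔSC libraries 1 to 3. At this depth, the 53 genes together received 3066, 4734 and 5562 reads in control and 5870, 3854 and 5868 in Rnf40ΔSC libraries. Normalized counts below are counts divided by the library size after TMM scaling (trimmed mean of M values) and brought to the mean size of the 6 libraries. A single read was worth between 0.798 and 1.59 normalized counts, so that genes with few reads were measured coarsely. Rnf40 (chromosome 7, 134732212 to 134747119, plus strand, in the mm9 assembly as all gene positions here) had 130, 126 and 142 normalized counts in control libraries 1 to 3 and 90.2, 90.4 and 94.2 in Rnf40ΔSC libraries 1 to 3. Every Rnf40ΔSC library lay below every control library (log2 fold change -0.54, standard error 0.14, Benjamini-Hochberg adjusted p = 0.00242 in the edgeR quasi-likelihood fit), although the call was not reached when libraries were scaled by total counts (log2 fold change -0.27, adjusted p = 0.12 by the same edgeR test). Reads over the whole gene were counted, and exons 3 and 4, which Cre removes, were not separated.

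Markers were used to check that the libraries were nerve. Of the 6 Schwann cell markers reported, all were tested, 5 were lower and Egr2 was higher in Rnf40ΔSC nerves. Of all genes, 16.2% were lower and 15.4% higher by the same edgeR test. The summed level of the 6 markers was 4682, 5230 and 4994 normalized counts in control libraries 1 to 3 and 2558, 2348 and 2545 in Rnf40ΔSC libraries 1 to 3. Ncmap made up 34.8% of this sum, and Sox10, which marks all Schwann cells, went from a control mean of 1032 ± 66.1 to 598 ± 28.3 (normalized counts ± SD, n = 3 each, log2 fold change -0.79, standard error 0.09, Benjamini-Hochberg adjusted p = 8.8e-09 in the edgeR quasi-likelihood fit). The call of Egr2 was lost without control 3 (0.30). In whole-nerve RNA, fewer cells of a type and less RNA per cell cannot be told apart. Library Rnf40ΔSC 3 stood apart from the other 2 of its group, at 20.35 on the second principal component where these were at -10.49 and -3.95. The 15 skeletal muscle markers, of which 0 passed the test in either direction by edgeR, by DESeq2 or at an unadjusted p up to 0.05, summed to 9519, 7273 and 5399 normalized counts in control libraries 1 to 3 and 201, 509 and 6725 in Rnf40ΔSC libraries 1 to 3, with Myh4 as the most abundant. Rnf40ΔSC 3 was thus near the control libraries in muscle RNA and the other 2 Rnf40ΔSC libraries were far below them. Counts of module genes are therefore also given without Rnf40ΔSC 3.

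The comparison of genotypes asked which parts of the fusion machinery changed in Rnf40-deficient nerves. Of the 11 neuronal members tested, 5 were higher in Rnf40ΔSC nerves, among them Snap25, Syt4 and Syn1, 2 were lower and 4 did not pass the test. Fold changes fitted by edgeR were 2.82 for Snap25, which was tested only through its Rnf40ΔSC reads, and 2.91 for Syt4. Syt11, the synaptotagmin with the most reads, was lower, as were Stx2 and Vamp8. Of the 37 members tested, 7 were higher and 7 were lower in Rnf40ΔSC nerves at an adjusted p (Benjamini-Hochberg, edgeR quasi-likelihood) up to 0.05, against 15.4% higher and 16.2% lower among all 11371 genes tested. DESeq2 called 6 higher and 5 lower, against 10.3% higher and 11.3% lower of all genes, and edgeR under total-count scaling called 12 higher and 5 lower, against 33.1% higher and 7.74% lower. The limits of the study on fold change and level were also added to the edgeR adjusted p, whereas the study itself used DESeq2. They require a log2 fold change of 0.8 or more in either direction and a mean of 20 or more normalized counts over the 6 libraries. Under them 3 members were higher and 6 lower, against 3.73% and 5.05% of all genes. In 19 of the 37 members the 2 groups of libraries did not overlap, against 43.5% of all genes. The median log2 fold change of the tested members was -0.03, beside -0.003 for all genes, and the median of its absolute value was 0.31 beside 0.32. The sign of the members' median turned under total-count scaling (0.24), without control 2 (0.04) and, at 0.0024, with the replicate number as a block. Without Rnf40ΔSC 3, 8 members were higher and 8 lower. These included 13 of the 14 called with it, all but Stx7, together with Stx1a, Vamp2 and Vamp3. Calls among all genes rose in that fit as well, to 1915 higher and 1992 lower from 1756 and 1841 with all libraries.

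Members were also counted by class, and the difference between the classes was not tested. Among the 11 neuronal members tested, Snap91, Syt4, Snap25, Syn3 and Syn1 were higher, and 2 were lower, among them Syp, against 15.4% and 16.2% of all genes. By DESeq2 and under total-count scaling 5 higher and 1 lower of these passed. The shares of all genes were 10.3% higher and 11.3% lower by DESeq2 and 33.1% higher and 7.74% lower under total-count scaling. The groups did not overlap in 9 of the 11, against 43.5% of all genes. Their median absolute log2 fold change was 0.87, beside 0.32 for all genes. Genes with few reads and large standard errors entered it, such as Snap91 (standard error 0.59) and Snap25 (0.40), and the effect of depth on it was not tested. Their median log2 fold change of 0.11 was not stable. It was -0.18 with at least 10 counts in every library, -0.10 without control 1, -0.03 without Rnf40ΔSC 3, 0.02 without Rnf40ΔSC 2, 0.27 without control 3, 0.65 without control 2 and 0.39 under total-count scaling. Among the 19 ubiquitous members, 0 were higher by edgeR and by DESeq2, 2 were higher at an unadjusted p of at most 0.05, against 20.3% of all genes, and 4 were higher when libraries were scaled by total counts, against 33.1%. Stx2, Stxbp2, Vamp8 and Stx7 were lower, and the other 15 did not pass the test. The median absolute log2 fold change of this class was 0.16 and its median log2 fold change was -0.11, which became 0.16 under total-count scaling. That scaling shifted the median of all genes by 0.27 on the log2 scale, so the directions given here are relative to the TMM baseline. The neuronal genes tested had passed a filter that a gene can meet through the group in which it is higher, as Snap91 and Snap25 did, which reached its level (10 reads at the median library size, asked of 3 libraries) in 0 control and 3 Rnf40ΔSC libraries, and the 11 that did not pass it are described further on.

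**Figure D1:**
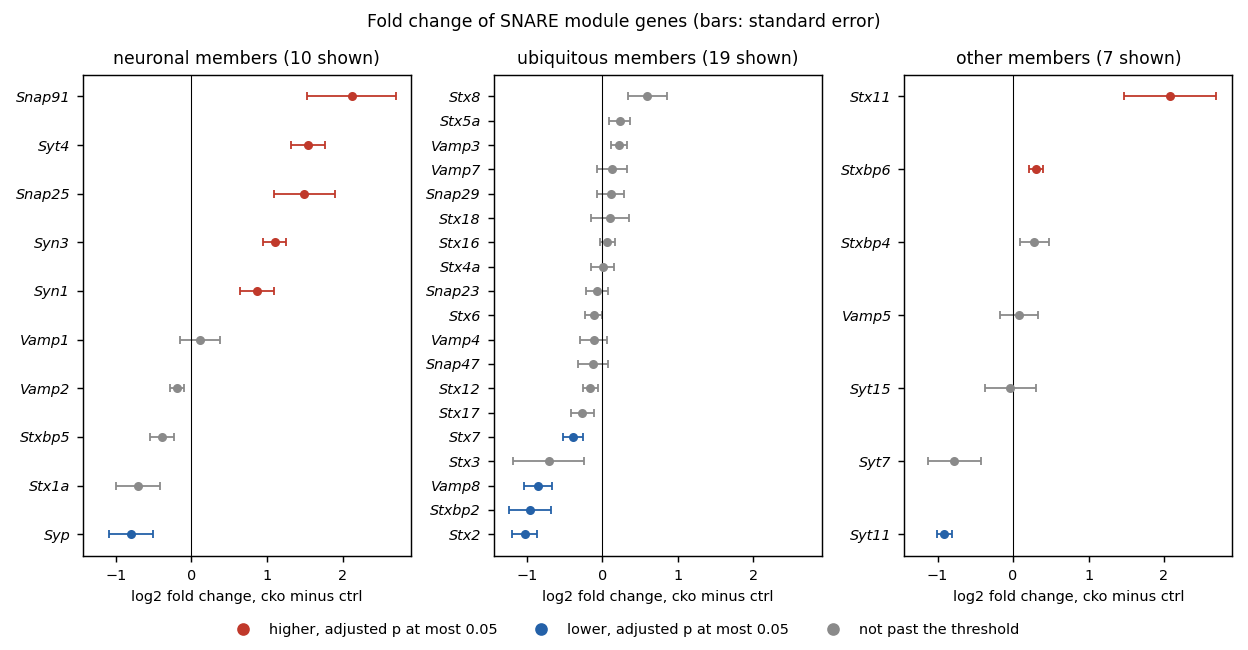
Log2 fold change between Rnf40ΔSC (cko) and control (ctrl) nerves for 36 tested members, in panels by class, with standard errors as bars and colours for an adjusted p of at most 0.05. Neuronal members spread from -0.80 to 2.12, while ubiquitous members lie between -1.03 and 0.60, with 4 coloured lower and 0 coloured higher; under total-count scaling 4 ubiquitous members were higher.

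Syntaxins are the target-membrane SNAREs, and 13 of 15 were tested. Stx2, a plasma membrane syntaxin of non-neuronal cells (chromosome 5, 129490432 to 129514449, minus strand), had 137, 106 and 113 normalized counts in control libraries 1 to 3 and 64.6, 53.0 and 53.5 in Rnf40ΔSC libraries 1 to 3. It fell from a control mean of 118 ± 16.2 to 57.0 ± 6.55 (normalized counts ± SD, n = 3 each), with all Rnf40ΔSC libraries below all control libraries (log2 fold change -1.03, standard error 0.16, Benjamini-Hochberg adjusted p = 4.27e-06 in the edgeR quasi-likelihood fit). The call was kept in all 12 alternatives tried, with adjusted p between 2.73e-08 and 0.000314, and Stx2 went from 7.45% ± 1.09 to 3.88% ± 0.387 of the reads of all syntaxins (SD, n = 3 each). Stx7, which acts in late endosomes and lysosomes (chromosome 10, 23869123 to 23908765, plus strand), had 144, 181 and 151 normalized counts in control libraries 1 to 3 and 132, 130 and 105 in Rnf40ΔSC libraries 1 to 3. The groups did not overlap, and its smaller difference (log2 fold change -0.39, standard error 0.13, Benjamini-Hochberg adjusted p = 0.0222 in the edgeR quasi-likelihood fit) was no longer past the threshold without control 2 (log2 fold change -0.29, edgeR adjusted p = 0.166), without Rnf40ΔSC 3 (-0.28, edgeR adjusted p = 0.119), by DESeq2 (-0.38, adjusted p = 0.0997) or under total-count scaling (-0.12, edgeR adjusted p = 0.488). Stx11, a syntaxin known from the killing granules of lymphocytes (chromosome 10, 12659787 to 12684065, minus strand), had only 0, 4 and 2 reads in control and 12, 9 and 11 in Rnf40ΔSC libraries. It reached the level of the filter in the Rnf40ΔSC libraries only, so that it was tested because it was high there. The call (log2 fold change 2.08, standard error 0.61, Benjamini-Hochberg adjusted p = 0.00775 in the edgeR quasi-likelihood fit) rested on few reads and was lost without control 1 (1.71, edgeR adjusted p = 0.0506) or control 3 (1.88, edgeR adjusted p = 0.0725) and by DESeq2 (2.18, adjusted p = 0.0527), while the log2 fold change was 3.01 without control 2.

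Stx1a, the syntaxin of the synapse, had 38.1, 29.4 and 28.4 normalized counts in control libraries 1 to 3 and 17.4, 12.1 and 26.3 in Rnf40ΔSC libraries 1 to 3. All Rnf40ΔSC libraries lay below all control libraries, yet the difference did not pass the test (log2 fold change -0.71, standard error 0.29, Benjamini-Hochberg adjusted p = 0.0598 in the edgeR quasi-likelihood fit). Without Rnf40ΔSC 3, the highest of its group, it did (log2 fold change -1.03, edgeR adjusted p = 0.012), as it did with at least 10 counts in every library (-0.68, edgeR adjusted p = 0.0496) and with the replicate number as a block (-0.75, edgeR adjusted p = 0.0479). Stx4a, a syntaxin of the plasma membrane in most cells, had 85.7, 91.5 and 81.8 normalized counts in control libraries 1 to 3 and 91.1, 89.2 and 79.8 in Rnf40ΔSC libraries 1 to 3, and the groups overlapped (log2 fold change 0.01, standard error 0.15). The most abundant syntaxins per length were those of the Golgi and endosomes, Stx16 at 95.6 and 99.7, Stx6 at 94.8 and 87.4 and Stx12 at 90.2 and 81.2 normalized counts per kb of exon in control and Rnf40ΔSC nerves. None of these 3 passed the test, and Stx1a was at 12.0 and 6.97 on the same scale.

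SNAP proteins contribute a pair of helices to a SNARE bundle. Snap25, the form used for transmitter release (chromosome 2, 136539189 to 136608164, plus strand), had 4.76, 6.54 and 6.89 normalized counts in control libraries 1 to 3 and 19.0, 15.7 and 18.4 in Rnf40ΔSC libraries 1 to 3. The groups were far apart relative to their spread, and the gene rose from a control mean of 6.06 ± 1.14 to 17.7 ± 1.78 (normalized counts ± SD, n = 3 each, log2 fold change 1.496, standard error 0.40, Benjamini-Hochberg adjusted p = 0.00375 in the edgeR quasi-likelihood fit). These values came from 3, 6 and 8 reads in control and 23, 13 and 23 in Rnf40ΔSC libraries, and the call was kept in all 11 alternatives that could test the gene, with adjusted p between 0.000534 and 0.0328. Snap25 reached the level of the filter in the Rnf40ΔSC libraries only, so that it was tested because it was high there. Snap23, its counterpart in other cells, had 102, 92.6 and 104 normalized counts in control libraries 1 to 3 and 99.4, 89.2 and 95.0 in Rnf40ΔSC libraries 1 to 3. Its groups overlapped (log2 fold change -0.07, standard error 0.15), with a sign that turned to 0.20 under total-count scaling, and Snap29 and Snap47 did not pass the test either. Reads of Snap25 amounted to 4.69, 7.06 and 6.61% of those of Snap23 in control libraries and 19.2, 17.6 and 19.3% in Rnf40ΔSC libraries, a ratio that does not depend on scaling. Per length, Snap23 was still the more abundant, at 22.0 normalized counts per kb of exon in Rnf40ΔSC nerves beside 2.60 for Snap25.

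VAMP proteins are the SNAREs of the vesicle, and all 7 were tested. Vamp8, which serves late endosomes and regulated secretion in glands and blood cells (chromosome 6, 72335217 to 72340697, minus strand), had 77.8, 97.0 and 78.3 normalized counts in control libraries 1 to 3 and 39.7, 53.0 and 48.7 in Rnf40ΔSC libraries 1 to 3. It fell from a control mean of 84.4 ± 10.9 to 47.1 ± 6.78 (normalized counts ± SD, n = 3 each), without overlap of the groups (log2 fold change -0.85, standard error 0.18, Benjamini-Hochberg adjusted p = 0.00035 in the edgeR quasi-likelihood fit), and kept its call in all 12 alternatives. Vamp2, the VAMP of most synapses, had 637, 678 and 586 normalized counts in control libraries 1 to 3 and 518, 534 and 608 in Rnf40ΔSC libraries 1 to 3. The groups overlapped and the test was not passed (log2 fold change -0.19, standard error 0.10, Benjamini-Hochberg adjusted p = 0.123 in the edgeR quasi-likelihood fit). Rnf40ΔSC 3 was the library inside the control range, and without it the log2 fold change was -0.26 (edgeR adjusted p = 0.0255), whereas total-count scaling turned the sign (0.08). Vamp3, its counterpart in recycling endosomes, had 295, 337 and 319 normalized counts in control libraries 1 to 3 and 442, 362 and 310 in Rnf40ΔSC libraries 1 to 3. It did not pass the test (log2 fold change 0.22, standard error 0.11, Benjamini-Hochberg adjusted p = 0.12 in the edgeR quasi-likelihood fit) but did so without Rnf40ΔSC 3 (log2 fold change 0.35, edgeR adjusted p = 0.00508) and under total-count scaling (0.49, edgeR adjusted p = 4e-04). Vamp1, which is used at neuromuscular synapses among others, had 15.9, 33.8 and 33.6 normalized counts in control libraries 1 to 3 and 29.8, 26.5 and 36.7 in Rnf40ΔSC libraries 1 to 3, with overlapping groups and a sign that changed without control 1 (-0.10) and without Rnf40ΔSC 3 (-0.03). Per length, the neuronal Vamp2 was the most abundant of the 6 VAMP genes with a known exon length, at 166 and 145 normalized counts per kb of exon in control and Rnf40ΔSC nerves, beside 110 and 129 for Vamp3 and 3.17 and 3.55 for Vamp1.

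Synaptotagmins changed in composition, although only 4 of 17 were tested. Syt11, a form that does not bind calcium and is linked to endocytosis and vesicle traffic (chromosome 3, 88548622 to 88636219, minus strand), had 564, 573 and 521 normalized counts in control libraries 1 to 3 and 315, 274 and 290 in Rnf40ΔSC libraries 1 to 3. It fell from a control mean of 553 ± 27.9 to 293 ± 21.1 (normalized counts ± SD, n = 3 each), with tight groups (log2 fold change -0.91, standard error 0.10, Benjamini-Hochberg adjusted p = 1.2e-09 in the edgeR quasi-likelihood fit) and a call kept in all 12 alternatives, where the log2 fold change ranged from -0.96 to -0.64. Syt4, a form found on dense-core and other regulated vesicles (chromosome 18, 31597462 to 31607069, minus strand), had 15.9, 26.2 and 27.5 normalized counts in control libraries 1 to 3 and 63.8, 83.2 and 66.2 in Rnf40ΔSC libraries 1 to 3. It rose from a control mean of 23.2 ± 6.37 to 71.0 ± 10.6 (normalized counts ± SD, n = 3 each), each Rnf40ΔSC library being above each control library (log2 fold change 1.54, standard error 0.22, Benjamini-Hochberg adjusted p = 9.21e-07 in the edgeR quasi-likelihood fit), and ranged from 1.38 to 1.81 over the alternatives. Syt7, a calcium sensor of slower fusion, had groups that did not overlap but did not pass the test (log2 fold change -0.78, standard error 0.35, Benjamini-Hochberg adjusted p = 0.091 in the edgeR quasi-likelihood fit), nor did Syt15 (log2 fold change -0.03).

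Since Syt11 fell and Syt4 rose, the shares of synaptotagmin reads shifted. Syt11 took 88.5, 83.5 and 87.0% of them in control libraries and 73.1, 65.0 and 67.2% in Rnf40ΔSC libraries, while Syt4 took 2.49, 3.81 and 4.60% and 14.8, 19.8 and 15.4%. The share of each gene was separated between the groups, and neither depends on the scaling of the libraries. Summed over the 17 genes, the level was 637, 686 and 598 normalized counts in control libraries 1 to 3 and 431, 421 and 431 in Rnf40ΔSC libraries 1 to 3, a ratio of 0.668. Lengths considered, Syt11 stood at 105 and Syt4 at 5.94 normalized counts per kb of exon in control nerves, and at 55.9 and 18.2 in Rnf40ΔSC nerves.

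**Figure D2:**
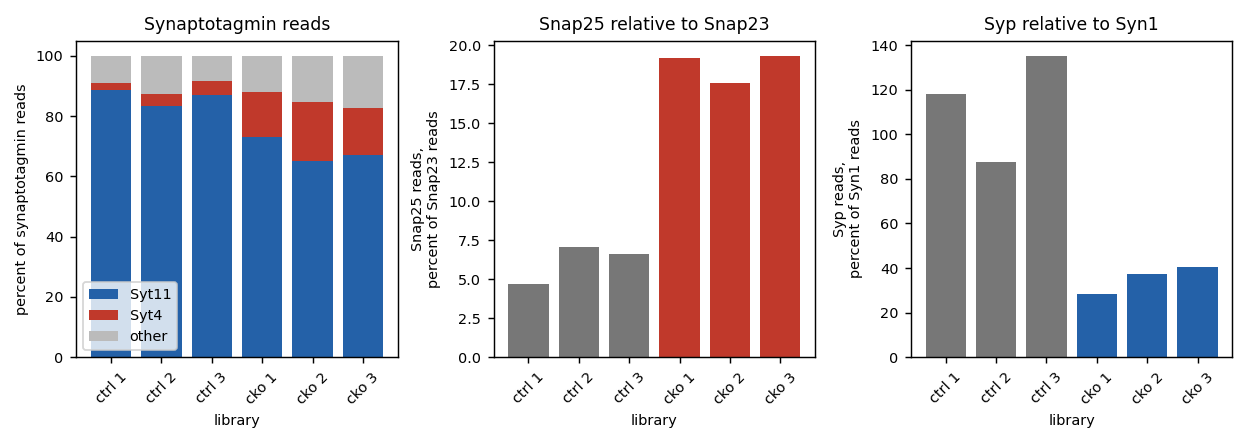
Shares of raw reads in each library, as stacked bars for the synaptotagmins (percent of the reads of all 17 genes) and as bars for Snap25 relative to Snap23 and for Syp relative to Syn1 (percent). Syt4 rises from 3.64% to 16.6% of synaptotagmin reads on average, Snap25 from 6.12% to 18.7% of Snap23 reads, and Syp goes from 114% to 35.4% of Syn1 reads.

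Syntaxin-binding proteins steer SNARE assembly, and the 5 that match the symbol rule were tested, 1 higher and 2 lower, beside 15.4% higher and 16.2% lower of all genes. Stxbp3a, outside the rule, did not pass the test (log2 fold change -0.31, edgeR adjusted p = 0.1), and Stxbp5l was below the filter. Stxbp2, which serves secretion in blood and epithelial cells (chromosome 8, 3630955 to 3643644, plus strand), had 55.6, 26.2 and 49.9 normalized counts in control libraries 1 to 3 and 29.8, 21.7 and 15.2 in Rnf40ΔSC libraries 1 to 3. The groups overlapped, since control 2 lay below Rnf40ΔSC 1, and the fall (log2 fold change -0.96, standard error 0.28, Benjamini-Hochberg adjusted p = 0.00798 in the edgeR quasi-likelihood fit) was lost without control 1 (-0.80, edgeR adjusted p = 0.0561) or control 3 (-0.82, edgeR adjusted p = 0.0876). Stxbp6, or amisyn, which binds SNARE partners in place of a VAMP (chromosome 12, 45953475 to 46175480, minus strand), had 773, 868 and 751 normalized counts in control libraries 1 to 3 and 1048, 979 and 930 in Rnf40ΔSC libraries 1 to 3. Its rise was small (log2 fold change 0.31, standard error 0.09, Benjamini-Hochberg adjusted p = 0.00877 in the edgeR quasi-likelihood fit) and was lost without control 3 (0.26, edgeR adjusted p = 0.0912) or Rnf40ΔSC 1 (0.27, edgeR adjusted p = 0.0572), although it took the most reads of any member, 18.45% of all module counts after scaling. Stxbp5, or tomosyn, had groups that did not overlap but missed the threshold (log2 fold change -0.39, standard error 0.16, Benjamini-Hochberg adjusted p = 0.0542 in the edgeR quasi-likelihood fit).

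Among the proteins that coat or bind synaptic vesicles, 4 of 5 were tested, 3 higher and 1 lower, beside 15.4% higher and 16.2% lower of all genes. Of the 3, Snap91 was tested only through its Rnf40ΔSC reads and Syn3 cannot be separated from a neighbouring gene. Syn1, a synapsin that tethers vesicles to the cytoskeleton (chromosome X, 20437637 to 20498130, minus strand), had 17.5, 34.9 and 29.3 normalized counts in control libraries 1 to 3 and 55.5, 51.8 and 47.1 in Rnf40ΔSC libraries 1 to 3. It rose from a control mean of 27.2 ± 8.88 to 51.5 ± 4.21 (normalized counts ± SD, n = 3 each) without overlap (log2 fold change 0.87, standard error 0.23, Benjamini-Hochberg adjusted p = 0.00354 in the edgeR quasi-likelihood fit) and in all 12 alternatives. Syn3, another synapsin (chromosome 10, 85517870 to 85961641, minus strand), had 71.5, 64.3 and 56.8 normalized counts in control libraries 1 to 3 and 115, 142 and 151 in Rnf40ΔSC libraries 1 to 3. It rose by a fitted 2.14-fold (log2 fold change 1.10, standard error 0.16, Benjamini-Hochberg adjusted p = 7.15e-07 in the edgeR quasi-likelihood fit), but 1733 bases or 14.11% of its exons overlap Timp3 on the opposite strand. Timp3 itself rose (log2 fold change 0.83, standard error 0.08, Benjamini-Hochberg adjusted p = 3.08e-11 in the edgeR quasi-likelihood fit) and received between 1973 and 6768 reads in the libraries, and as the strand setting of the counting is not given in the sources used here, reads of Timp3 cannot be told apart from those of Syn3. Timp1 lies within Syn1 but shares 0 exon bases with it, and had 6, 5 and 5 reads in control and 9, 9 and 27 in Rnf40ΔSC libraries.

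Snap91 is named like a SNAP but encodes AP180, a clathrin assembly protein of synaptic vesicle endocytosis (chromosome 9, 86659981 to 86775489, minus strand). It had 1, 0 and 6 reads in control and 16, 9 and 13 in Rnf40ΔSC libraries, so that every Rnf40ΔSC library exceeded every control library. With so few reads the difference passed the test (log2 fold change 2.12, standard error 0.59, Benjamini-Hochberg adjusted p = 0.00494 in the edgeR quasi-likelihood fit) but not without control 2 (1.55, edgeR adjusted p = 0.0602), and the log2 fold change was 3.90 without control 3. Syp, or synaptophysin, a vesicle membrane protein (chromosome X, 7215597 to 7230382, plus strand), went the other way, with 20.6, 30.5 and 39.6 normalized counts in control libraries 1 to 3 and 15.7, 19.3 and 19.2 in Rnf40ΔSC libraries 1 to 3. The groups were separated by a narrow gap (log2 fold change -0.80, standard error 0.29, Benjamini-Hochberg adjusted p = 0.0302 in the edgeR quasi-likelihood fit), and the call was lost without control 2 (-0.82, edgeR adjusted p = 0.0706), control 3 (-0.54, edgeR adjusted p = 0.27) or Rnf40ΔSC 1 (-0.70, edgeR adjusted p = 0.111), by DESeq2 (-0.78, adjusted p = 0.14) and under total-count scaling (-0.53, edgeR adjusted p = 0.143). Reads of Syp amounted to 118, 87.5 and 135% of those of Syn1 in control libraries and 28.4, 37.2 and 40.7% in Rnf40ΔSC libraries. Syn1 and Syp, both proteins of the same vesicle, thus changed in opposite directions.

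**Figure D3:**
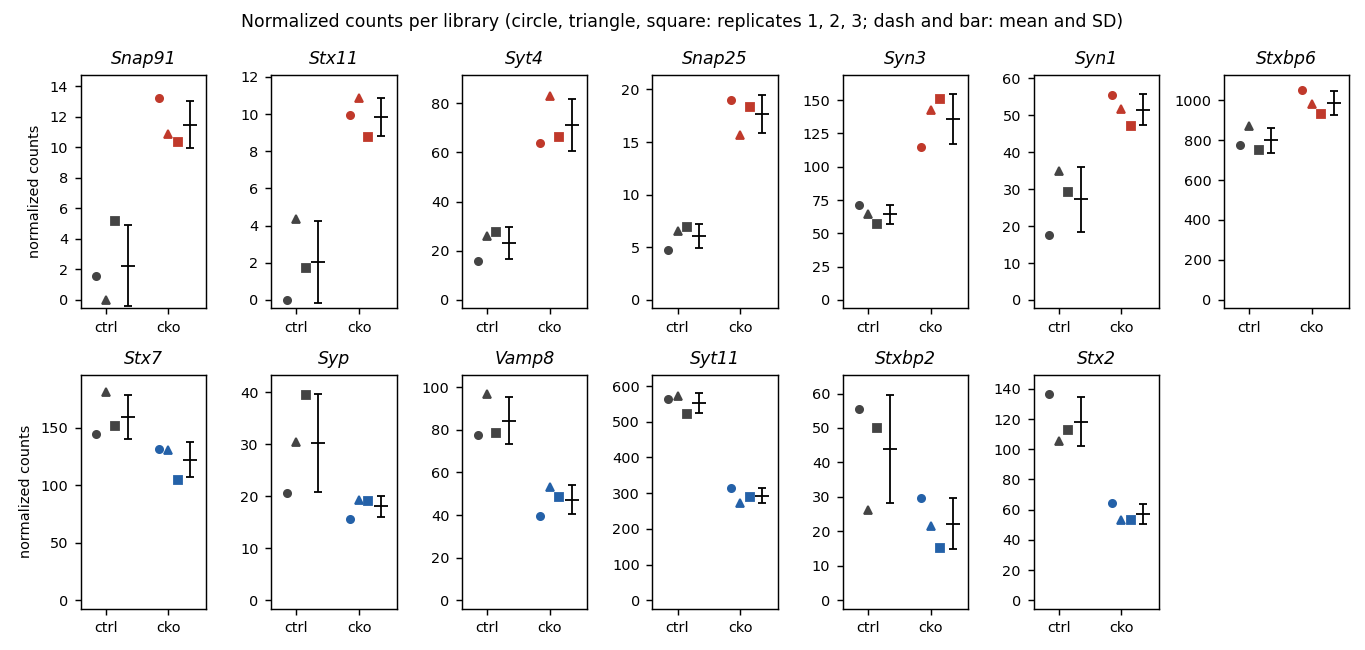
Normalized counts of 13 members past an adjusted p of 0.05 in each of the 6 libraries, with the mean and SD of each group (n = 3). The groups are separated in 12 panels, and they overlap in that of Stxbp2.

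Of the 16 members below the filter, 13 were synaptotagmins, and none exceeded 17 reads in a library. Stx19, Syt10, Syt14 and Syt8 had 0 reads in all 6 libraries, where a count of 0 allows up to 3 reads, or between 1.22 and 2.28 CPM (counts in 1e+06 of the library), by counting error alone. Syt1 and Syt2, the fast calcium sensors of synapses, had 0, 0 and 2 reads in control and 6, 4 and 2 in Rnf40ΔSC libraries for Syt1 and 1, 0 and 0 reads in control and 0, 0 and 1 in Rnf40ΔSC libraries for Syt2. Syt6 had 0, 0 and 0 reads in control and 3, 2 and 8 in Rnf40ΔSC libraries, which is at least 3.57-fold higher against a floor of 3 reads over the control group. Syt5 had 2, 3 and 2 reads in control and 8, 9 and 15 in Rnf40ΔSC libraries, without overlap. When the filter was left out, Syt5 (edgeR adjusted p = 0.0179, log2 fold change 1.87) and Syt6 (edgeR adjusted p = 0.0106) passed the test and Syt1 did not (edgeR adjusted p = 0.16), the fitted fold change of Syt6 being no measure of size with 0 reads in control. For the other members below the filter a difference was not detectable at this depth.

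**Figure D4:**
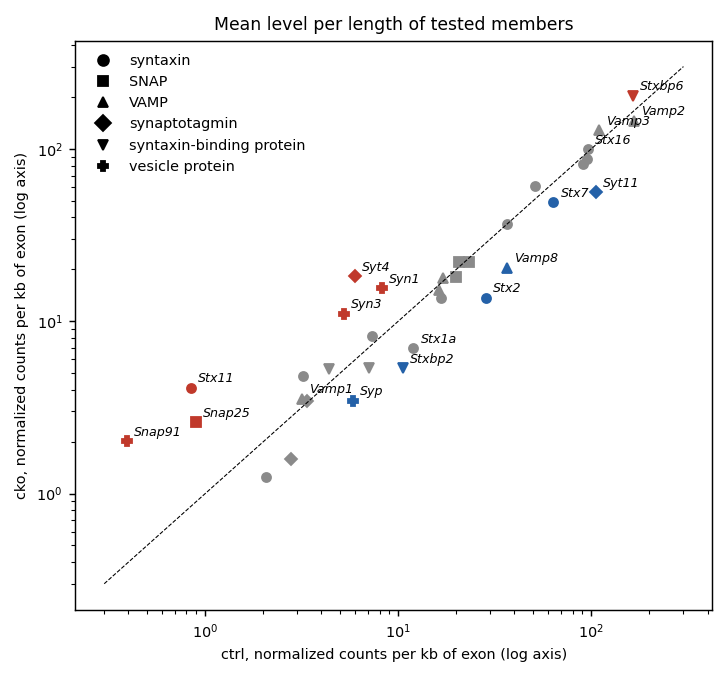
Mean level of tested members with known exon length in control (x) and Rnf40ΔSC nerves (y), in normalized counts per kb of exon on log axes, with symbols for roles, red for higher and blue for lower at an adjusted p of at most 0.05 and a dashed line at equality. Neuronal genes that rose lie at low levels, with Snap91 at 0.394 and 2.01 and Syt4 at 5.94 and 18.2, but Vamp1 at 3.17 and 3.55 and Syp at 5.80 and 3.46 are as low without a rise, and Vamp2 lies near the line at 166 and 145.

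Levels per length were low for neuronal members that rose and for others that did not. In control nerves Snap25 had 0.893, Syn1 8.24 and Syt4 5.94 normalized counts per kb of exon, and in Rnf40ΔSC nerves 2.60, 15.6 and 18.2. Vamp1 had 3.17 and 3.55, and Syp, which fell, 5.80 and 3.46. Summed over the 22 neuronal members, the level was 1092, 1190 and 1102 normalized counts in control libraries 1 to 3 and 1039, 1087 and 1187 in Rnf40ΔSC libraries 1 to 3, and Vamp2 alone held 53.17% of it. Without Vamp2 the sum was 456, 512 and 516 normalized counts in control libraries 1 to 3 and 521, 553 and 579 in Rnf40ΔSC libraries 1 to 3, a ratio of 1.11. Syn3, whose reads cannot be told apart from those of Timp3, carried this rise. When it was left out too, a choice made after the values were seen, the sum was 384, 448 and 459 normalized counts in control libraries 1 to 3 and 406, 411 and 429 in Rnf40ΔSC libraries 1 to 3, with overlapping groups and a ratio of 0.965. The 19 ubiquitous members summed to 2323, 2390 and 2308 normalized counts in control libraries 1 to 3 and 2341, 2159 and 2143 in Rnf40ΔSC libraries 1 to 3, with overlapping groups.

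Markers of neurons were examined beside these genes. Of 22 neuron markers 5 were tested and 1 was higher, with 0 lower by edgeR, 0 by DESeq2 and 1 at an unadjusted p up to 0.05. The shares of all genes were 15.4% higher and 16.2% lower by edgeR and 10.3% higher and 11.3% lower by DESeq2. At that unadjusted p they were 20.3% higher and 20.7% lower. The summed level of the 22 markers was 184, 168 and 145 normalized counts in control libraries 1 to 3 and 224, 210 and 189 in Rnf40ΔSC libraries 1 to 3, a ratio of 1.25. Map2 carried this rise, since without it, a choice made after the values were seen, the sum was 159, 147 and 119 normalized counts in control libraries 1 to 3 and 165, 119 and 121 in Rnf40ΔSC libraries 1 to 3, with overlapping groups and a ratio of 0.955. The most abundant was Uchl1 with 26.6% of the sum, and Isl1, Tac1 and Chat were at 0 in all libraries, while Rbfox3, which marks neuronal nuclei, had 0, 0 and 1 reads in control and 1, 1 and 1 in Rnf40ΔSC libraries. Map2, a dendritic microtubule protein, was the marker that rose, with 25.4, 20.7 and 25.8 normalized counts in control libraries 1 to 3 and 59.6, 90.4 and 67.8 in Rnf40ΔSC libraries 1 to 3 (log2 fold change 1.57, standard error 0.22, Benjamini-Hochberg adjusted p = 6.49e-07 in the edgeR quasi-likelihood fit). Nefh, a neurofilament of axons, and Stmn2, a microtubule regulator of axons, did not pass the test, Nefh having 34.9, 26.2 and 27.5 normalized counts in control libraries 1 to 3 and 20.7, 20.5 and 16.8 in Rnf40ΔSC libraries 1 to 3 and Stmn2 10, 18 and 26 reads in control and 22, 4 and 14 in Rnf40ΔSC libraries. The part of axonal or other neuronal RNA in the differences of the SNARE genes was not tested.

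Genes of Schwann cells before myelination, in the immature or promyelinating stage, were a further list. Of 7, 4 were higher (Sox2, Pou3f1, Pou3f2 and Ncam1) and 2 lower (L1cam and Ngfr), beside 15.4% higher and 16.2% lower of all genes, and the sum was 1302, 1348 and 1274 normalized counts in control libraries 1 to 3 and 2673, 3363 and 2705 in Rnf40ΔSC libraries 1 to 3. Pou3f1, known from the promyelinating stage, was its most abundant gene and carried most of its rise, from a control mean of 379 ± 44.1 to 1562 ± 292 (normalized counts ± SD, n = 3 each). As Vamp8, Stxbp2 and Stx11 are used in blood cells among others, markers of immune cells were counted too. Of the 9 macrophage markers counted, 7 were lower by edgeR, 4 by DESeq2 and 2 under total-count scaling, beside 16.2%, 11.3% and 7.74% of all genes, with 0 higher by edgeR, 0 by DESeq2 and 0 at an unadjusted p up to 0.05, and the sum, led by Csf1r, was 946, 891 and 962 normalized counts in control libraries 1 to 3 and 649, 640 and 659 in Rnf40ΔSC libraries 1 to 3. Of 7 mast cell markers 5 were tested and 3 (Cpa3, Tpsb2 and Mcpt4) were lower by edgeR, 1 by DESeq2 and 2 under total-count scaling, beside 16.2%, 11.3% and 7.74% of all genes. The sum over the 7, led by Cpa3, was 135, 160 and 195 normalized counts in control libraries 1 to 3 and 116, 88.0 and 90.2 in Rnf40ΔSC libraries 1 to 3. The calls of Tpsb2 and Mcpt4 were lost by DESeq2 (adjusted p = 0.0522 and 0.115), that of Mcpt4 also under total-count scaling (edgeR adjusted p = 0.0754). Mcpt4 reached the level of the filter in 1 Rnf40ΔSC library only. The calls were also lost without control 3 (-0.79) and without control 2, control 3 or Rnf40ΔSC 2 (-1.15 to -0.89), and those of the macrophage genes Cd68 and Cd163 without control 3 (-0.55) and without control 2 or Rnf40ΔSC 2 (-0.59 to -0.55), and that of Cd163 also by DESeq2 (adjusted p = 0.0623) and under total-count scaling (edgeR adjusted p = 0.111). Of 5 adipocyte markers 3 were lower, by edgeR and by DESeq2, beside 16.2% and 11.3% of all genes. The call of Adipoq was lost under total-count scaling (edgeR adjusted p = 0.0653) and without control 3 (-0.48), and that of Cfd without Rnf40ΔSC 2 or Rnf40ΔSC 3 (-0.99 to -0.93). The sum over the 5 adipocyte markers, led by Fabp4, was 2226, 1621 and 2814 normalized counts in control libraries 1 to 3 and 1746, 1599 and 1269 in Rnf40ΔSC libraries 1 to 3. The part of these cell types in the module's differences was not tested.

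Factors that dock, prime and regulate synaptic vesicles around the SNARE bundle formed a list of 53 genes outside the rule, of which 25 were tested, 5 higher and 4 lower by edgeR, with a median log2 fold change of -0.01. DESeq2 called 2 higher and 1 lower, and edgeR under total-count scaling 8 higher and 1 lower, beside 15.4% higher and 16.2% lower of all genes by edgeR, 10.3% higher and 11.3% lower by DESeq2 and 33.1% higher and 7.74% lower under total-count scaling. Cplx2, a complexin that clamps and promotes fusion, had 187, 165 and 180 normalized counts in control libraries 1 to 3 and 218, 259 and 295 in Rnf40ΔSC libraries 1 to 3, without overlap (log2 fold change 0.54, standard error 0.12, Benjamini-Hochberg adjusted p = 0.000374 in the edgeR quasi-likelihood fit). Unc13a, the Munc13 priming factor of synapses, had 1, 3 and 2 reads in control and 14, 7 and 11 in Rnf40ΔSC libraries (log2 fold change 2.07, standard error 0.58, Benjamini-Hochberg adjusted p = 0.00576 in the edgeR quasi-likelihood fit), and the call was lost without control 3 (1.86) and by DESeq2 (2.13, adjusted p = 0.0553). Sv2b, a vesicle glycoprotein, had 5, 7 and 8 reads in control and 24, 22 and 19 in Rnf40ΔSC libraries (log2 fold change 1.42, standard error 0.39, Benjamini-Hochberg adjusted p = 0.00437 in the edgeR quasi-likelihood fit). Unc13a and Sv2b reached the level of the filter in the Rnf40ΔSC libraries only. Bsn, a scaffold of the active zone, and Napa, which disassembles spent SNARE bundles together with Nsf, were also higher (log2 fold change 0.68 and 0.32). The call of Bsn was lost without control 2, control 3, Rnf40ΔSC 2 or Rnf40ΔSC 3 (0.55 to 0.66) and by DESeq2 (0.67, adjusted p = 0.146), and that of Napa without control 1, control 2, control 3 or Rnf40ΔSC 3 (0.20 to 0.37) and by DESeq2 (0.33, adjusted p = 0.121). On the lower side, Tprgl, a vesicle-associated protein, had 406, 462 and 415 normalized counts in control libraries 1 to 3 and 329, 300 and 267 in Rnf40ΔSC libraries 1 to 3 (log2 fold change -0.52, standard error 0.10, Benjamini-Hochberg adjusted p = 0.000101 in the edgeR quasi-likelihood fit). Unc13b (log2 fold change -0.50), the vesicle GTPase Rab3a (-0.68) and its effector Rph3a (-0.84) were lower. Their calls were lost without control 3 or Rnf40ΔSC 3 (-0.40 to -0.27) for Unc13b, without control 1, control 2, control 3, Rnf40ΔSC 1 or Rnf40ΔSC 2 (-0.75 to -0.52) for Rab3a and without control 1, control 3, Rnf40ΔSC 1 or Rnf40ΔSC 2 (-0.76 to -0.68) for Rph3a, for all 3 under total-count scaling and by DESeq2, and for Rab3a with no filter on low counts (edgeR adjusted p = 0.0633).

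Cargo and processing enzymes of dense-core vesicles, the organelles on which Syt4 resides, were a list of 16 genes with 5 tested, 2 higher and 2 lower by edgeR, 1 higher and 2 lower by DESeq2 and 3 higher and 0 lower by edgeR under total-count scaling, with a median log2 fold change of 0.12. Of all genes, 15.4% higher and 16.2% lower passed by edgeR, 10.3% higher and 11.3% lower by DESeq2 and 33.1% higher and 7.74% lower under total-count scaling. Pcsk1, a convertase that cleaves prohormones, had 1, 0 and 1 reads in control and 21, 26 and 16 in Rnf40ΔSC libraries, so that its fold change against so few control reads was imprecise (log2 fold change 4.52, standard error 0.67, Benjamini-Hochberg adjusted p = 1.39e-06 in the edgeR quasi-likelihood fit). Scg5, a granule chaperone of another convertase, had 4, 8 and 11 reads in control and 23, 14 and 22 in Rnf40ΔSC libraries (log2 fold change 1.07, standard error 0.38, Benjamini-Hochberg adjusted p = 0.0258 in the edgeR quasi-likelihood fit) and lost its call without control 1, control 2, control 3 or Rnf40ΔSC 1 (0.96 to 1.20) and by DESeq2 (1.10, adjusted p = 0.115). Both genes reached the level of the filter in the Rnf40ΔSC libraries only, so that the 2 higher of 5 were tested because they were high there. The abundant processing enzymes went down, Cpe from a control mean of 681 ± 47.9 to 526 ± 17.2 (normalized counts ± SD, n = 3 each, log2 fold change -0.37, standard error 0.09, Benjamini-Hochberg adjusted p = 0.00192 in the edgeR quasi-likelihood fit) and Pam from a control mean of 478 ± 52.2 to 355 ± 12.2 (normalized counts ± SD, n = 3 each, log2 fold change -0.43, standard error 0.10, Benjamini-Hochberg adjusted p = 0.000691 in the edgeR quasi-likelihood fit). Under total-count scaling Cpe and Pam were no longer called.

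REST is a repressor that keeps neuronal genes off in other cells by binding an element named RE1 and recruiting corepressors. Rest had 5, 6 and 11 reads in control and 11, 11 and 8 in Rnf40ΔSC libraries and was below the filter. Of the other 9 genes on the list, 3 were higher and 1 was lower, by edgeR and by DESeq2, and 5 higher and 0 lower under total-count scaling, with a median log2 fold change of 0.41. Hdac1 and Rcor2, which enter this median (log2 fold change 0.86 and 0.51), reached the level of the filter in the Rnf40ΔSC libraries only. They were thus tested because they were high there, and neither passed the edgeR test. The shares of all genes were 15.4% higher and 16.2% lower by edgeR, 10.3% higher and 11.3% lower by DESeq2 and 33.1% higher and 7.74% lower under total-count scaling. Kdm1a, a histone demethylase, went from a control mean of 99.9 ± 7.24 to 157 ± 14.4 (normalized counts ± SD, n = 3 each, log2 fold change 0.66, standard error 0.13, Benjamini-Hochberg adjusted p = 0.000214 in the edgeR quasi-likelihood fit). Hdac2 (log2 fold change 0.41) was higher in all 12 alternatives too, and Ehmt2, a histone methyltransferase, was lower (-0.58), except that its call was lost under total-count scaling. No test related these genes to the SNARE genes.

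Promoters of the members were searched for letters of binding elements of REST and of EGR factors, the family of Egr2. RefSeq promoters of 300 bases (250 before to 50 after the start site, GRCm38.p6) matched 40 of the 53 members and 10 of the 14 that passed the test. On both strands, the left part of RE1 (TTCAGCACC) was in 0.371% of all 32851 promoters and, among members, in that of Syn1 alone, with its first base at position -232 from the start site. The right part of RE1 (GGACAG) was in 22.2% of all promoters and in 13 of the 52 promoters of members. These belong to 10 genes, among them Snap91, which rose, and Stx2 and Syt11, which fell. The EGR core (GCGNGGGCG) was in 5.55% of all promoters and in 5 of the 52 promoters of members. These belong to Stx2, Stxbp5, Syn2, Syt16 and Vamp4, and in Stx2 the first base of the core lay at position -2. These matches describe letters and are no evidence of binding. The promoters of 2 members that rose and 2 that fell are printed 5′ to 3′ on the strand of the gene, the minus strand for all 4, with the matching letters in capitals, at chrX:20920869-20921168 for Syn1, chr9:86880659-86880958 for Snap91, chr5:129008523-129008822 for Stx2 and chr3:88772550-88772849 for Syt11.
Syn1: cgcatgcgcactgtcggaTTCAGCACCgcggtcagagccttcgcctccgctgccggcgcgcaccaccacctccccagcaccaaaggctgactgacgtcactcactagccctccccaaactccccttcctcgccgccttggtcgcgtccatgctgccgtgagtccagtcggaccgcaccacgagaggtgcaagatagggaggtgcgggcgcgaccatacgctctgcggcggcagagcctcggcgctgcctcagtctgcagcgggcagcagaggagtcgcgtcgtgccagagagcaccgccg
Snap91: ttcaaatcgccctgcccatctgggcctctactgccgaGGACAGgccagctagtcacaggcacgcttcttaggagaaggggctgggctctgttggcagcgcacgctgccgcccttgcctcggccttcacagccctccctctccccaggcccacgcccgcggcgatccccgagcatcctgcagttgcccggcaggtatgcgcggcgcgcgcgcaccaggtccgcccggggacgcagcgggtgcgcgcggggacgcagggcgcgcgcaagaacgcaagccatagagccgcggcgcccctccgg
Stx2: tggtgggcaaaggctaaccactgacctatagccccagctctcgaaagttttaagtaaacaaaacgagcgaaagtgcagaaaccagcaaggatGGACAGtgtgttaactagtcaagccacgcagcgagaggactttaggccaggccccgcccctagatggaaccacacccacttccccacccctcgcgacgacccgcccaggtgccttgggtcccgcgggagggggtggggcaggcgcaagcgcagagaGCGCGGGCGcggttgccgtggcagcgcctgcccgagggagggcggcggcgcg
Syt11: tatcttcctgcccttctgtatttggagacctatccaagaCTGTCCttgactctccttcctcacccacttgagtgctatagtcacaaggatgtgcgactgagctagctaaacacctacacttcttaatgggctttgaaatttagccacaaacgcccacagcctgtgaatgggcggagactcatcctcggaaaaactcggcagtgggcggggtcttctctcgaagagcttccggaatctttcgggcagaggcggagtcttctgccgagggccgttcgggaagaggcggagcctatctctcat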

How the data were processed

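Whole-nerve RNA-Seq counts per gene were used as deposited, 1 table for each of 6 libraries; the authors counted reads over genes with HTSeq after alignment. The submitters' processing notes name Bowtie2 2.1.0, HTSeq and the builds mm9 and mm10, whereas the methods of the study name TopHat and mm9. The kits named differ as well (NEB Next Ultra in the labels, NEXTFLEX Rapid Directional in the methods), and the strand setting of the counting is not given in the sources used here. Libraries were grouped by genotype as labelled. Using R 4.3.3 and edgeR 4.0.16, low counts were removed with filterByExpr, libraries were scaled by TMM, and a robust quasi-likelihood test was fitted over 11371 genes with Benjamini-Hochberg adjustment. DESeq2 1.42.0 was an alternative, beside other scalings and filters, a replicate block and leaving out each library. Normalized counts were scaled to the arithmetic mean of the effective library sizes, and the geometric mean was added as an alternative after seeing the data. Standard errors were computed from the fold change and the F statistic. Coordinates and exon lengths came from GENCODE for mm9, and promoters from RefSeq (GRCm38.p6).

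Members and gene lists were chosen with earlier results of these data known. All members past an adjusted p of 0.05 and a core of synaptic and ubiquitous members were named with full values. From each further list up to 5 genes in each direction with the smallest p were named; other genes were chosen after their values were seen. The test was checked on simulated counts, and the outcome is not reported here. Values of some genes are not reported here, though counts and sums over members include them; those over Schwann cell markers leave them out. Limits from counts of 0 cover counting error only.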

Additional observations from a re-analysis of the deposited data

How the results depend on the processing

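Scaling by total counts changed the balance most, with 3766 of all genes higher and 880 lower in place of 1756 and 1841. It gave 12 members higher, 1 neuronal member lower and 4 ubiquitous members higher, and medians of 0.24 for all members, 0.39 for neuronal, 0.16 for ubiquitous and 0.34 for the remaining members. The log2 fold changes of Vamp2 (0.0778) and Snap23 (0.20) then changed sign. A minimum of 10 counts in every library left 4 members higher, 3 of them neuronal and 1 of the remaining class, with medians of -0.18 and 0.19 for these classes, since fewer genes were tested. The limits of the study left 424 genes higher and 574 lower, with 3 members higher, 3 of them neuronal and 0 of the remaining class. With base means scaled to the geometric mean of library sizes, added after seeing the data and after seeing that it gives the all-gene counts of an earlier account, these were 415, 567, 3, 3 and 0. DESeq2 gave 1 neuronal member lower and 1 of the remaining class higher, against 11.3% lower and 10.3% higher of all genes. At an unadjusted p of at most 0.05, 4 neuronal members were lower, 2 ubiquitous members were higher and 2 of the remaining class were lower. The shares of all genes were then 20.7% lower and 20.3% higher. The causes of these changes were not tested where not stated.

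Leaving out each library in turn gave 1 to 4 neuronal members lower, 0 to 1 ubiquitous members higher and 0 to 2 of the remaining class higher. Medians ranged from -0.0841 to 0.0373 for all members, -0.10 to 0.65 for neuronal, -0.14 to -0.0170 for ubiquitous and -0.0105 to 0.24 for the remaining members. Vamp1 ranged from -0.10 to 0.27 and Stx4a from -0.0408 to 0.0763. With the replicate number as a block, 1727 genes were higher and 1837 lower, and 7 members were higher and 8 lower. This replicate block added Stx1a (-0.75, edgeR adjusted p = 0.0479) to the 14 members called and lost none of them. Same-numbered libraries did not deviate together (correlations -0.0948, -0.015 and -0.0621), so the numbers were not taken as pairing the samples. Depth limits the members with few reads, and 16 members were below the filter.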

Other observations

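SNAREs of the Golgi and endosomes that fall outside the symbol rule were looked at as well. All 17 counted were tested, 3 were higher and 1 lower by edgeR in Rnf40ΔSC nerves (0 higher and 0 lower by DESeq2, 4 and 1 at an unadjusted p up to 0.05), beside 15.4% higher and 16.2% lower of all genes by edgeR, 10.3% higher and 11.3% lower by DESeq2 and 20.3% higher and 20.7% lower at that unadjusted p, with a median log2 fold change of -0.01, and their summed level was 1426, 1459 and 1474 normalized counts in control libraries 1 to 3 and 1526, 1562 and 1550 in Rnf40ΔSC libraries 1 to 3. Gosr1, a SNARE of Golgi traffic, was higher (log2 fold change 0.37, standard error 0.13, Benjamini-Hochberg adjusted p = 0.0283 in the edgeR quasi-likelihood fit) but not without control 2, control 3 or Rnf40ΔSC 1 (0.29 to 0.34). Bet1 and Sec22b, which act between endoplasmic reticulum and Golgi, were higher (log2 fold change 0.45 and 0.33), and lost their calls without control 1, control 2, Rnf40ΔSC 1 or Rnf40ΔSC 2 (0.28 to 0.50) and without control 1, control 3, Rnf40ΔSC 1 or Rnf40ΔSC 2 (0.24 to 0.34). Scfd1, a protein of the Sec1 family in the same step, was lower (log2 fold change -0.47), with its call lost without control 1, Rnf40ΔSC 1 or Rnf40ΔSC 3 (-0.46 to -0.28). All 4 calls were lost by DESeq2, and that of Scfd1 also under total-count scaling, which gave 4 higher and 0 lower by edgeR, beside 33.1% higher and 7.74% lower of all genes.

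The exocyst tethers secretory vesicles to the plasma membrane before SNAREs engage. Of 10 subunit genes counted 9 were tested, and Exoc3 (log2 fold change -0.34, standard error 0.12, Benjamini-Hochberg adjusted p = 0.0231 in the edgeR quasi-likelihood fit) and Exoc6b (log2 fold change -0.51) were lower, beside 16.2% of all genes, with a median log2 fold change of -0.33 for the list. Both calls were lost by DESeq2 and under total-count scaling, which gave 2 other subunits higher, beside 33.1% of all genes, that of Exoc3 without control 1, control 2, Rnf40ΔSC 1 or Rnf40ΔSC 2 (-0.34 to -0.26) and that of Exoc6b without control 2, control 3 or Rnf40ΔSC 1 (-0.51 to -0.39). Their summed level was 838, 924 and 797 normalized counts in control libraries 1 to 3 and 779, 700 and 737 in Rnf40ΔSC libraries 1 to 3, with every Rnf40ΔSC library below every control library.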
